A study of Arabidopsis thaliana with 6 samples.

Results

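A set of 10 genes that Arabidopsis laboratories use as expression references was followed through an RNA immunoprecipitation of NSRa. They were taken from a list of gene identifiers, with no threshold on their values, and all 10 were found among the 39351 features of the deposited table. They encode a scaffold subunit of protein phosphatase 2A (PP2AA3, AT1G13320), a SAND family protein of vesicle traffic to the vacuole (SAND, AT2G28390), a relative of the yeast TOR pathway protein TIP41 (TIP41-like, AT4G34270), a ubiquitin-conjugating enzyme also named PEX4 (UBC21, AT5G25760), a cytosolic glyceraldehyde-3-phosphate dehydrogenase (GAPC1, AT3G04120), a translation elongation factor 1-alpha (EF1A, AT5G60390), a polyubiquitin (UBQ10, AT4G05320) and 3 actins of vegetative tissue (ACT2, AT3G18780; ACT7, AT5G09810; ACT8, AT1G49240). PP2AA3 was also the housekeeping RNA set against FPA in a percent-of-input assay of the study.

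The series holds 2 RIP libraries, pulled down with an anti-HA antibody, 2 Mock libraries, pulled down with mouse IgG, and 2 Input libraries of the lysate. Every library came from the nsra mutant complemented with NSRa-HA under the native NSRa promoter, treated with the synthetic auxin NAA for 24 h and irradiated with UV, so genotype and treatment do not differ between the groups. The labels give the NAA dose as 1 µM in the treatment protocol and 100 nM in the extract protocol, and the age of the plantlets as 10, 14 or 15 days. Nothing states that the libraries of a group came from separate cultures, so p-values measure the spread between these libraries, which may be technical.

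A reference gene serves a pull-down in a different way from an expression assay. In an expression assay its level is taken as equal between samples, whereas in RIP it stands for RNA that the tagged protein does not bind, and its recovery over the input is the baseline that a bound RNA has to exceed. Abundant housekeeping mRNAs are the usual choice because they can be measured even where little RNA is recovered. Actins, polyubiquitins, EF1A and GAPC genes belong to families of close copies, so a read from a conserved stretch can belong to several of them.

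The actin genes show how close such copies are, and sequences were therefore compared over the length of a read, 75 bases. The coding sequences of ACT2 and ACT8, 1134 bp each, were 91.0% identical, against 82.5% for ACT2 and ACT7 and 83.5% for ACT8 and ACT7. The stretch of 75 bases within a coding exon where ACT2 and ACT8 are most alike is printed 5′ to 3′ from the RefSeq genome TAIR10.1. It lies at chr3:6476153-6476227 in ACT2, chr1:18217247-18217321 in ACT8 and chr5:3053529-3053603 in ACT7, on the plus strand in each. Capitals mark bases that differ from ACT2 and, in the ACT2 line, bases that differ from ACT8 or ACT7.
ACT2: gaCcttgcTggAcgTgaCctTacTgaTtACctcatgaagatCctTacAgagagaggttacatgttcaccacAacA
ACT8: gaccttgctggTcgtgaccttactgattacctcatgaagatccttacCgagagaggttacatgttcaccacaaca
ACT7: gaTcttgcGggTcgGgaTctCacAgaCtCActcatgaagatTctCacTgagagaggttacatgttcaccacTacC
Even there, ACT8 differed from ACT2 at 2 bases and ACT7 at 15 bases. No 75-base window of ACT2, ACT7 or ACT8 mRNA occurred in the transcripts of another gene, and the same held for PP2AA3, SAND, TIP41-like and GAPC1.

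EF1A and UBQ10 did share windows with other genes. Of 2372 windows of EF1A, 42 (1.77%) also lay in another EF1A gene, 30 of them in all 4 copies. Of 2276 windows of UBQ10, 35 (1.54%) also lay in UBQ11 (33 windows) or UBQ14 (2 windows). A shared stretch of each is printed because reads from it cannot be assigned to a gene. The EF1A stretch, chr5:24290373-24290447 on the plus strand, is coding and is found unchanged in AT1G07920, AT1G07930 and AT1G07940. The UBQ10 stretch, chr4:2719820-2719894 on the plus strand, is coding and is found unchanged in UBQ11.
EF1A: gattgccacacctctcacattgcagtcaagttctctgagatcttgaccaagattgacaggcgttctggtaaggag
UBQ10: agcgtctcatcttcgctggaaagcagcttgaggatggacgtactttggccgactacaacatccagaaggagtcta
UBC21 shared 81 of 941 windows (8.61%) with AT5G25770, which overlaps it on the opposite strand, and the counting by strand separates such a pair. How the aligner treated reads from the shared EF1A and UBQ10 windows is not given in the sources used here, so the values of these 2 genes carry that uncertainty.

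The depth of the libraries sets what can be said about each gene. RIP libraries held 1599136 and 977230 reads and Mock libraries 197923 and 154149, against 27494964 and 25274634 in Input. The smallest amount called detectable here, 3 reads, was 1.88 and 3.07 CPM (reads per 1000000 reads) in RIP, 15.2 and 19.5 in Mock and 0.109 and 0.119 in Input. The 10 genes together took 0.470 and 0.442% of the reads in RIP, 0.298 and 0.398% in Mock and 0.486 and 0.483% in Input. The tagged gene, NSRa, had 144.9 and 105.3 FPKM (fragments per kilobase of exon, scaled to library size) in RIP and 181 and 60.3 in Mock, against 11.4 and 12.1 in Input. Input held shoot markers (RBCS1A, 3545 and 3598 FPKM) and root markers (PYK10, 1498 and 1516 FPKM), while the floral gene AP1 was at 0, so markers of both shoot and root were present.

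In Input the 10 genes spanned a wide range of levels, and the libraries of the group gave nearly the same values. UBQ10 was highest with 838 ± 1.202 FPKM (SD, n = 2), followed by EF1A with 567 ± 8.54, GAPC1 with 371 ± 1.27 and ACT7 with 248 ± 0.552 FPKM. ACT2 (134 ± 0.589 FPKM) and ACT8 (133 ± 2.1 FPKM) overlapped, and so did PP2AA3 (26.8 ± 0.845 FPKM) and UBC21 (26.1 ± 0.290 FPKM). SAND, with 20.7 ± 0.261 FPKM, and TIP41-like, with 19.0 ± 0.746 FPKM, were lowest. The ratio of Input library 1 to Input library 2 lay between 0.946 (TIP41-like) and 1.05 (PP2AA3). The genes therefore form a high set of 6 and a low set of 4, with no level between 27.4 and 132 FPKM.

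The order changed in the pull-downs. In RIP, UBQ10 stayed first (575 ± 6.48 FPKM), but ACT2 came second with 513 ± 7.31 FPKM, above EF1A (415 ± 46.2), and ACT8 followed with 309 ± 57.3 FPKM, above GAPC1 (158 ± 60) and ACT7 (127 ± 39.8). GAPC1 and ACT7 overlapped, as did TIP41-like, PP2AA3, UBC21 and SAND among themselves. In Mock, UBQ10 (529 ± 231 FPKM) and EF1A (465 ± 175 FPKM) overlapped at the top, GAPC1, ACT2 and ACT8 overlapped below them, and the low set was at or near 0 in most libraries.

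**Figure D1:**
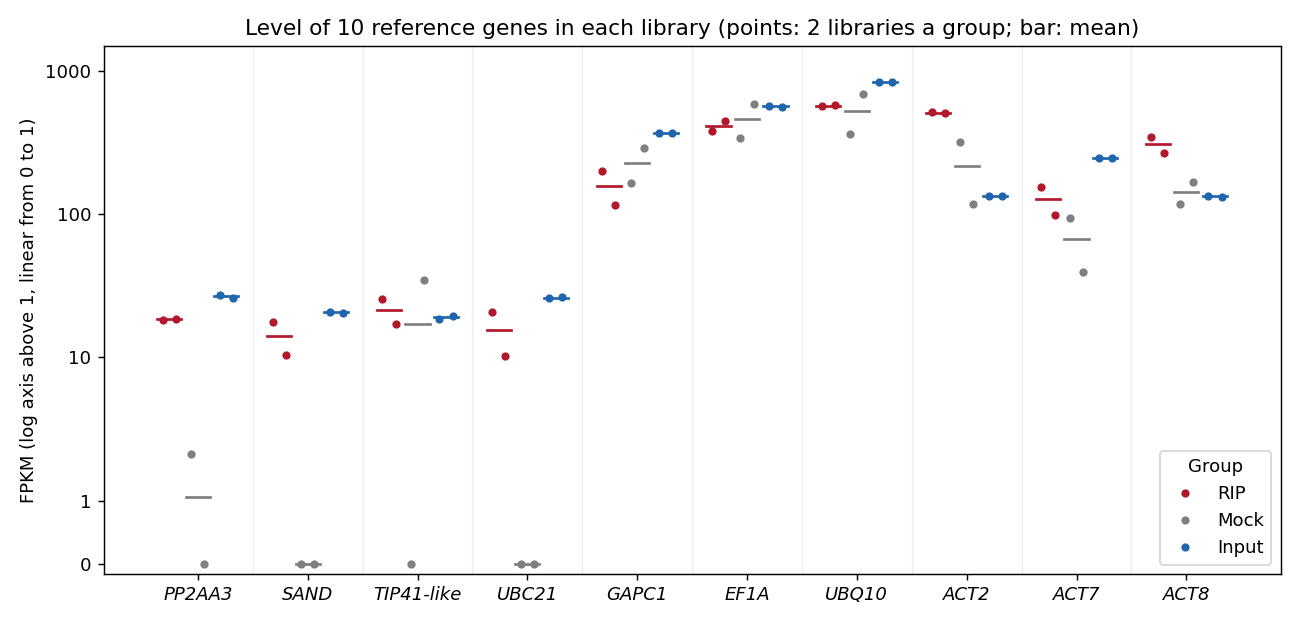
Level of each of the 10 reference genes in FPKM (vertical axis, logarithmic above 1 and linear from 0 to 1), with a point for each of the 2 RIP (red), 2 Mock (grey) and 2 Input (blue) libraries and a bar at the group mean. ACT2 and ACT8 are the genes whose RIP points lie above their Input points (ACT2, 513 FPKM in RIP against 134 FPKM in Input), and SAND and UBC21 are at 0 in both Mock libraries.

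RIP against Input asks whether an RNA was recovered with NSRa beyond its share of the lysate. All 10 genes passed the filter on low values (1 FPKM in 2 libraries). None of the 10 genes passed the thresholds (0 of 10; an absolute log2 fold change above 2 and a limma Benjamini-Hochberg adjusted p under 0.01), against 7.26% of the 19997 features tested, made up of 1.48% higher in RIP and 5.78% lower (with quantile normalization 273 features were higher and 298 lower, with voom 38 and 6). Without adjustment, p was under 0.05 for 2 of the 10 genes, ACT2 and ACT8, both higher, and for 0 lower ones, against 9.02 and 25% of all features, and voom on the recovered reads called 0. The libraries themselves separated more often than the test called. Both RIP values were below both Input values for 7 genes, a pattern found for 50.2% of the features tested, and above both for 2 genes, found for 22.7%, while TIP41-like overlapped. The median log2 fold change was -0.53 over the 10 genes and -0.52 over all features tested. RIP is used here in 2 of the 3 comparisons, as are Mock and Input, so the comparisons are not independent of each other.

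The low set is known from searches for stably expressed genes, and its recovery was read from few reads. PP2AA3, at chr1:4563428-4567849, had 18.4 and 18.5 FPKM in the RIP libraries (70 and 43 reads), against 27.4 and 26.2 FPKM in the Input libraries. Both RIP values lay below both Input values, and the RIP share of reads over that of the pooled Input was 0.685 (95% counting interval 0.533 to 0.868) in RIP library 1 and 0.688 (0.497 to 0.929) in RIP library 2. Such intervals and the 3-read limit cover counting error only, since reads copied by PCR are not separate molecules.

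SAND (chr2:12139578-12143665) had 17.7 and 10.3 FPKM in RIP, against 20.9 and 20.5 FPKM in Input. UBC21 (chr5:8967655-8969369) had 20.7 and 10.2 FPKM in RIP, against 25.9 and 26.3 FPKM in Input. For both genes RIP library 1 held more than RIP library 2, 1.71 times for SAND and 2.02 times for UBC21, and both RIP values stayed below Input. TIP41-like (chr4:16403844-16406303) had 25.6 and 17.1 FPKM in RIP, against 18.5 and 19.6 FPKM in Input, so its RIP values lay on either side of Input. On the log2(FPKM + 1) scale the differences of RIP from Input were -0.52 ± 0.623 (SE) for PP2AA3, -0.57 ± 0.314 for SAND, -0.79 ± 0.388 for UBC21 and 0.13 ± 1.85 for TIP41-like, with limma Benjamini-Hochberg adjusted p of 0.683, 0.309, 0.259 and 0.984 in that order. The 95% intervals of these differences ran from -2.25 to 1.22, -1.45 to 0.30, -1.87 to 0.28 and -5.02 to 5.28. The lack of a call therefore does not show that the levels were equal. These SEs and intervals use a spread shared with the Mock libraries. Mock was far apart for PP2AA3 (2.12 and 0 FPKM) and TIP41-like (0 and 34.5 FPKM). Their intervals therefore do not measure the spread of RIP and Input alone. The limma adjusted p was 0.0537 for PP2AA3 and 0.722 for TIP41-like in the fit of only the RIP and Input libraries, and neither passed. For TIP41-like the difference was -0.15 without RIP library 1.

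GAPC1, EF1A and UBQ10 are abundant, and their RIP values rested on between 193 and 1865 reads. GAPC1, the glycolytic enzyme (chr3:1080942-1083690), had 200.3 and 115 FPKM in RIP, against 370.2 and 372 FPKM in Input. It was the least recovered of the 10 genes, with 0.540 (0.495 to 0.587) of its Input share in RIP library 1 and 0.311 (0.269 to 0.358) in RIP library 2. Its log2 difference, -1.28 ± 0.467 (95% interval -2.58 to 0.02), did not pass (limma, Benjamini-Hochberg adjusted p = 0.151), and 72.1% of the features tested lay above it. The limma adjusted p was 0.0715 in the fit of only the RIP and Input libraries.

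EF1A, which brings aminoacyl-tRNA to the ribosome (chr5:24288596-24291020), had 383 and 448 FPKM in RIP, against 573 and 561 FPKM in Input. UBQ10, a run of ubiquitin units in 1 reading frame (chr4:2717977-2720308), had 571 and 579.7 FPKM in RIP, against 838.5 and 837 FPKM in Input. Both genes were lower in each RIP library than in each Input library. UBQ10 was recovered alike in the RIP libraries, at 0.681 (0.650 to 0.713) and 0.692 (0.653 to 0.733) of its Input share, and EF1A at 0.675 (0.640 to 0.711) and 0.790 (0.742 to 0.841). The log2 differences were -0.45 ± 0.344 for EF1A and -0.54 ± 0.363 for UBQ10, with limma Benjamini-Hochberg adjusted p of 0.474 and 0.409 and 95% intervals of -1.41 to 0.50 and -1.55 to 0.47. In the fit of only the RIP and Input libraries the limma adjusted p was 0.0865 for EF1A and 0.0378 for UBQ10, and neither passed.

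The 3 actins, which form the microfilaments of leaves and roots, did not share a direction. ACT2 (chr3:6474710-6477204) had 518 and 508 FPKM in RIP, against 134 and 135 FPKM in Input. Its share of reads was 3.86 (3.68 to 4.04) and 3.78 (3.57 to 4.01) times its Input share in the RIP libraries. The values of the RIP libraries were close to each other and far above those of Input. ACT8 (chr1:18215800-18218339) had 349 and 268 FPKM in RIP, against 135 and 132 FPKM in Input, or 2.62 (2.46 to 2.80) and 2.01 (1.83 to 2.21) times its Input share. ACT7 (chr5:3052062-3054691), an actin of growing tissue that responds to hormones, was in contrast below Input, with 156 and 99.4 FPKM in RIP, against 248 and 249 FPKM in Input. The RIP ratios of ACT7 were 0.627 (0.570 to 0.688) and 0.400 (0.343 to 0.464).

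In the fit, ACT2 differed between RIP and Input by 1.93 ± 0.559 on the log2 scale (95% interval 0.37 to 3.48; limma, Benjamini-Hochberg adjusted p = 0.0922), and 3.70% of the features tested had a larger difference. ACT8 differed by 1.19 ± 0.35 (0.22 to 2.17; limma, Benjamini-Hochberg adjusted p = 0.0941), with 8.06% of features above it. ACT7 differed by -0.99 ± 0.575 (-2.59 to 0.61; limma, Benjamini-Hochberg adjusted p = 0.339). The fit shares a spread with the Mock libraries, whose values for ACT2, 318 and 118 FPKM, were far apart. With only the RIP and Input libraries in the fit, the limma adjusted p was 0.00246 for ACT2 and 0.0219 for ACT8, within ranges over the alternatives of 0.00237 to 0.378 for ACT2 and 0.0219 to 0.531 for ACT8. ACT2 still did not pass there, because its log2 difference stayed below 2. ACT7 had a limma adjusted p of 0.0797 in that fit.

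**Figure D2:**
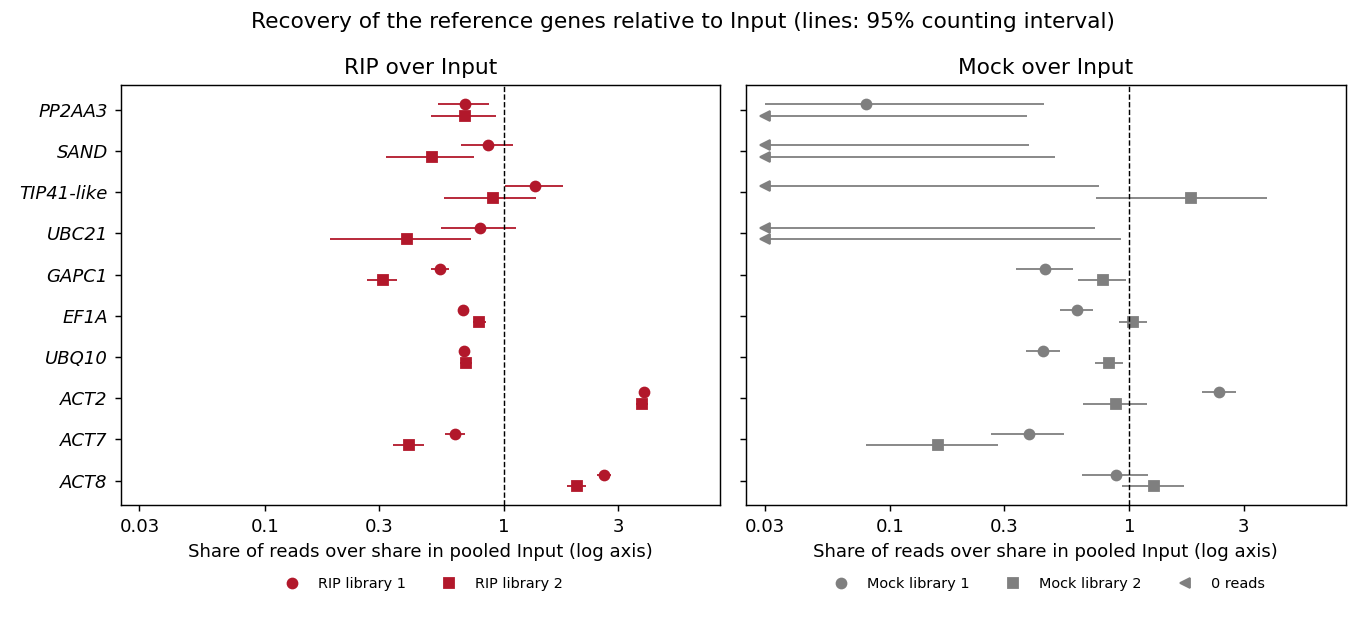
Share of reads of each reference gene over its share in the pooled Input libraries (horizontal axis, logarithmic), in the 2 RIP libraries (left, red) and the 2 Mock libraries (right, grey), with 95% counting intervals and a dashed line at 1. ACT2 (3.86 and 3.78) and ACT8 (2.62 and 2.01) lie right of the line in RIP and most other genes left of it, and arrowheads mark genes with 0 reads in a Mock library.

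As a baseline, the 10 genes did not agree on a common recovery. In RIP library 1 the ratios to Input spanned 7.15 times, with a geometric mean of 0.998, and in RIP library 2 they spanned 12.2 times, with a geometric mean of 0.759. Without ACT2 and ACT8, a choice made after their values were seen, the geometric means were 0.747 and 0.549. The counting interval lay wholly below 1 for 5 genes in RIP library 1 and 7 in RIP library 2, and wholly above 1 for 3 (ACT2, ACT8 and TIP41-like) and 2 (ACT2 and ACT8). PP2AA3 and UBQ10 stood close together, with means of RIP over Input of 0.687 each. Agreement between the RIP libraries also differed by gene, since RIP library 1 over RIP library 2 ranged between 0.854 for EF1A and 2.02 for UBC21.

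Shares within gene families give a comparison that does not depend on how the libraries were scaled. Among the reads of ACT2, ACT7 and ACT8, ACT2 took 57.8% (exact 95% Clopper-Pearson interval 56.2 to 59.5%) and 64.9% (interval 62.7 to 67.1%) in RIP and 66.7% (interval 60.1 to 72.7%) and 43.1% (interval 33.4 to 53.3%) in Mock, against 31.8 and 32.1% in Input. ACT7 took 13.03 and 9.52% in RIP and 14.9 and 10.8% in Mock, against 44.2 and 44.5% in Input. The FPKM of ACT2 over that of ACT7 was 3.33 and 5.11 in RIP and 3.35 and 2.999 in Mock, against 0.539 and 0.541 in Input. The actin shares of all 4 pull-down libraries thus lay apart from Input in the same direction, with IgG as with the HA antibody. ACT8 took 29.1 and 25.6% in RIP, against 23.9 and 23.4% in Input, while its Mock shares, 18.4 and 46.1%, lay on either side.

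EF1A showed the same kind of split among its 4 copies. AT5G60390 took 29.3% (exact interval 28.0 to 30.6%) and 30.7% (interval 29.2 to 32.3%) of the EF1A reads in RIP libraries 1 and 2. It took 32.2% (interval 28.1 to 36.6%) and 22.7% (interval 20.03 to 25.5%) of them in Mock, against 55.2 and 54.4% in Input. The other copies were above Input in both RIP libraries. They were also above Input in the Mock libraries, except AT1G07930 in Mock library 1. Mock held 411 and 904 FPKM of AT1G07920, 131 and 757 of AT1G07930, and 262 and 619 of AT1G07940. Their log2 differences of RIP from Mock were -0.44, 0.10 and -0.39 in that order, and none passed. AT1G07920 had 434 and 466 FPKM in RIP, against 211 and 212 FPKM in Input, and its log2 difference was 1.09 ± 0.452 (limma, Benjamini-Hochberg adjusted p = 0.195). AT1G07940 (log2 difference 1.35 ± 0.501, limma adjusted p = 0.156) and AT1G07930 (0.70 ± 0.925, limma adjusted p = 0.719) did not pass either. Adding the reads of the copies therefore gives another answer than the single gene, and the windows shared with other copies were the 42 of 2372 given above.

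UBQ10, GAPC1 and PP2AA3 were read within their families in the same way. UBQ10 took 49.4 and 50.6% of the reads of 5 polyubiquitin genes in RIP and 33.0 and 40.1% in Mock, against 56.5 and 56.2% in Input. GAPC1 took 47.0 and 38.9% of the reads of GAPC1 and GAPC2 in RIP and 53.3 and 49.4% in Mock, against 39.8 and 40.1% in Input, so its RIP libraries lay on either side of Input. PP2AA3 took 21.9% (17.5 to 26.9%) and 29.5% (22.2 to 37.5%) of the reads of 3 PP2AA genes in RIP, against 26.6 and 26.2% in Input, and Mock held 1 and 9 reads of that family. These shares are given as a description, with counting intervals; the smallest p of an exact permutation test with 2 libraries a group is 0.333.

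**Figure D3:**
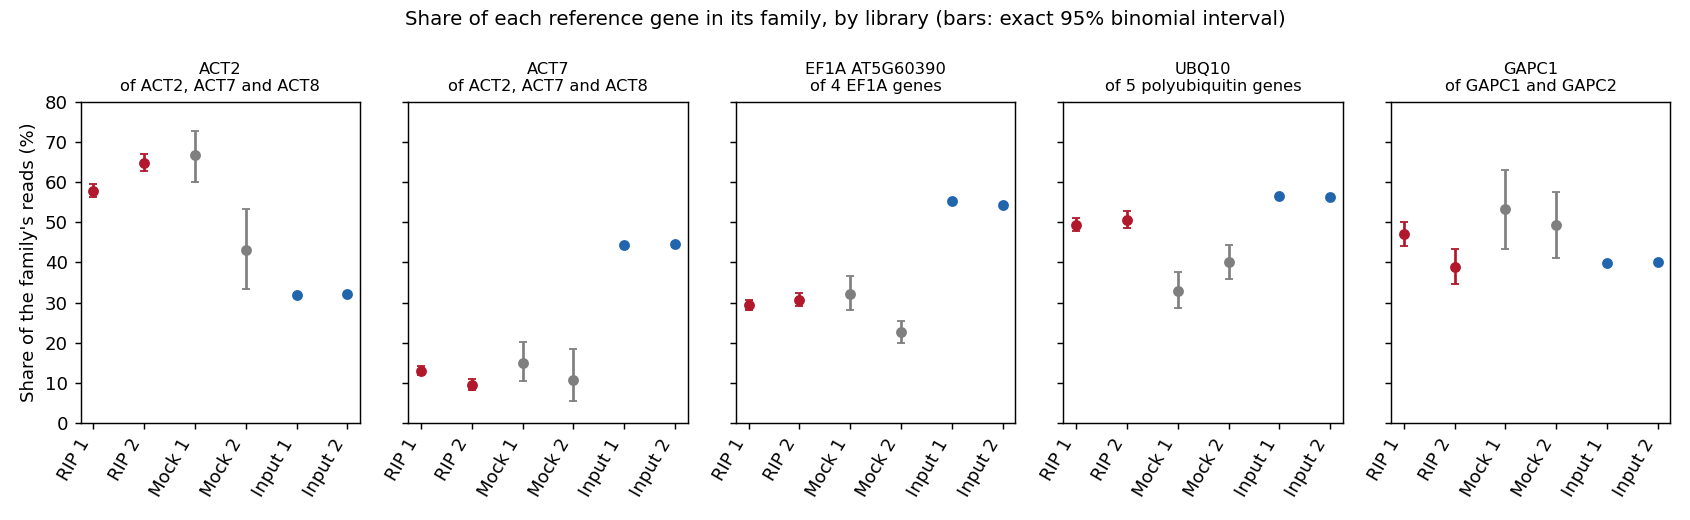
Share of the family's reads (vertical axis, percent) that ACT2, ACT7, EF1A AT5G60390, UBQ10 and GAPC1 took in each of the 6 libraries, with exact 95% binomial intervals (RIP red, Mock grey, Input blue). ACT2 lies higher and ACT7 and EF1A lower in all 4 pull-down libraries than in Input, where ACT2 took 31.8 and 32.1%.

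RIP against Mock asks whether an RNA took a larger share of its library with the HA antibody than with IgG. Values scaled to each library do not compare the amounts of RNA recovered. The paper reports that RNA from the mock eluate was below detection, a difference in amount that these values do not show. Of the 10 genes, 2 passed (a log2 fold change of at least 1 and a limma Benjamini-Hochberg adjusted p under 0.01), SAND and UBC21, both higher in RIP, against 34.5% of all features tested (34.3% higher, 0.18% lower). Among the features that passed, the direction turned with the scaling or test. Quantile normalization gave 228 higher and 1785 lower, and voom gave 26 higher and 1674 lower. Over all features the median log2 difference was still 1.28 with voom, and it was -0.17 with quantile normalization. Both RIP values exceeded both Mock values for 6 genes (PP2AA3, SAND, UBC21, ACT2, ACT7 and ACT8), a pattern found for 56.6% of features. They were below both for 0 genes, against 1.3% of features, and TIP41-like, GAPC1, EF1A and UBQ10 overlapped. The median log2 difference of the 10 genes was 1.26, or 1.06 with SAND and UBC21 at the bounds given next, against 2.13 over all features.

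SAND had 67 and 24 reads in RIP, against 0 and 0 in Mock, and UBC21 had 33 and 10 reads in RIP, against 0 and 0 in Mock. At the RIP share, 12.4 reads of SAND and 5.88 of UBC21 would have fallen in the Mock libraries together. Against a limit of 3 reads over both Mock libraries, RIP was at least 4.15-fold higher for SAND and at least 1.96-fold higher for UBC21. Their limma Benjamini-Hochberg adjusted p was 0.00128 and 0.00215. Since both Mock libraries were at 0, Mock added no spread to these fits. The bound of UBC21 lies below the log2 fold change of 1 used as threshold. PP2AA3, with 70 and 43 reads in RIP against 1 and 0 in Mock, had a ratio of pooled read shares of 15.4 (2.72 to 615) and did not pass (log2 difference 3.46 ± 0.623; limma, Benjamini-Hochberg adjusted p = 0.0142).

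These calls moved with single libraries. Calls moved in both directions. Without Mock library 1, UBC21 no longer passed, while PP2AA3 and ACT2 did. Without Mock library 2, PP2AA3 and TIP41-like passed as well. Each of these fits takes a lone Mock library to vary like the other libraries. The log2 differences of these genes moved as well. Without Mock library 2 they were 2.64 for PP2AA3, 4.46 for TIP41-like and 0.69 for ACT2, and without Mock library 1 they were 4.28, -0.69 and 2.11. Without either Input library, or with only the RIP and Mock libraries in the fit, 0 of the 10 passed. In that fit of only RIP and Mock the adjusted p was 0.0145 for SAND and 0.0192 for UBC21, and 0 of all features passed, although the unadjusted p was under 0.05 for 8553 higher and 75 lower features. Voom on the recovered reads called neither gene (adjusted p = 0.0190 for each). With quantile normalization the log2 difference was 0.74 for SAND and 0.99 for UBC21 (limma adjusted p = 0.168 and 0.172).

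GAPC1, EF1A and UBQ10 did not pass against IgG. GAPC1 had 200.3 and 115 FPKM in RIP, against 165 and 288 FPKM in Mock, EF1A had 383 and 448 FPKM in RIP, against 341 and 589 FPKM in Mock, and UBQ10 had 571 and 579.7 FPKM in RIP, against 366 and 692 FPKM in Mock. The groups overlapped for each of the 3 genes. Their log2 differences were -0.52, -0.11 and 0.19, with 95% intervals of -1.82 to 0.78, -1.07 to 0.84 and -0.82 to 1.203 (limma, Benjamini-Hochberg adjusted p = 0.433, 0.871 and 0.741). Of all features tested, 96.3% lay above GAPC1, 94.7% above EF1A and 84.4% above UBQ10. The sign is not settled for EF1A, which had 0.28 without Mock library 2, nor for UBQ10, which had -0.27 without Mock library 1 and -0.025 under median-of-ratios scaling.

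The actins lay above IgG in every pair of libraries. ACT2 had 518 and 508 FPKM in RIP, against 318 and 118 FPKM in Mock (log2 difference 1.40, 95% interval -0.15 to 2.95; limma, Benjamini-Hochberg adjusted p = 0.131). ACT8 had 349 and 268 FPKM in RIP, against 118 and 169 FPKM in Mock (1.11, interval 0.14 to 2.09; limma, Benjamini-Hochberg adjusted p = 0.0716). ACT7 had 156 and 99.4 FPKM in RIP, against 94.8 and 39.4 FPKM in Mock (1.01, interval -0.59 to 2.61; limma, Benjamini-Hochberg adjusted p = 0.275). Of all features tested, 65.6% had a larger difference than ACT2, 71.5% than ACT8 and 73.4% than ACT7.

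Mock against Input shows how the RNA brought down with IgG differed from the lysate. Of the 10 genes, 3 passed (an absolute log2 fold change above 2 and a limma Benjamini-Hochberg adjusted p under 0.01), all lower in Mock and all from the low set: PP2AA3, SAND and UBC21. Over all features tested 41.7% passed, 0.715% higher and 41% lower (with quantile normalization 161 features were higher and 574 lower). Both Mock values were below both Input values for 6 of the genes, against 81.8% of features, and above both for 0, against 2.16%, while TIP41-like, EF1A, ACT2 and ACT8 overlapped. The median log2 difference of the 10 genes was -1.26, or -1.19 with SAND and UBC21 at their bounds, against -2.70 over all features.

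The depth of the Mock libraries is given beside these 3 calls. At their Input shares, Mock library 1 would have held 12.7 reads of PP2AA3, 9.71 of SAND and 5.15 of UBC21, and Mock library 2 would have held 9.85, 7.57 and 4.01 reads. The libraries held 1 and 0 reads of PP2AA3 and 0 reads of SAND and UBC21, so Input was at least 5.76-fold higher than the 3-read limit for SAND and at least 3.05-fold higher for UBC21. This bound of UBC21 lies below the log2 fold change of 2 used as threshold. For PP2AA3, Mock over Input was 0.0444 (0.00112 to 0.248) in pooled reads. The limma Benjamini-Hochberg adjusted p was 0.00682 for PP2AA3, 0.00057 for SAND and 0.000863 for UBC21, and PP2AA3 no longer passed with either RIP library left out (0.0227 and 0.0228), with only the Mock and Input libraries in the fit (0.0218), with a pseudocount of 0.1 FPKM (0.0429) or with the replicate number as a block (0.0152). UBC21 did not pass with voom (adjusted p = 0.0191), and none of the 3 passed with quantile normalization (0 calls, log2 differences of -0.42 for PP2AA3, -1.26 for SAND and -1.71 for UBC21). Without either Input library none of the 3 passed (0 calls).

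TIP41-like, of the same low set, differed between the Mock libraries, with 0 reads in Mock library 1 and 7 in Mock library 2, where 4.96 and 3.86 would have matched its Input share. Its log2 difference was -1.75 ± 1.85 (adjusted p = 0.452 by limma with Benjamini-Hochberg adjustment), with 0.83 without Mock library 1, and -4.32 without Mock library 2, where it passed (limma adjusted p = 0.00197). Its Mock level was therefore not determined at this depth.

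Among the abundant genes, ACT7 was lowest relative to Input, with 0.382 (0.264 to 0.534) and 0.159 (0.0791 to 0.284) of its Input share in the Mock libraries. Its log2 difference of -2.00 ± 0.575 did not pass (limma, Benjamini-Hochberg adjusted p = 0.0410), but did without Mock library 1 (-2.63, adjusted p = 0.00735). ACT2 took 2.37 (2.01 to 2.78) times its Input share in Mock library 1 and 0.880 (0.639 to 1.18) in Mock library 2. Its log2 difference, 0.53, was -0.18 without Mock library 1. ACT8 (0.883 and 1.27), EF1A (0.602 and 1.04), UBQ10 (0.437 and 0.826) and GAPC1 (0.446 and 0.777) were higher relative to Input in Mock library 2 than in Mock library 1. Across the 10 genes the log2 difference of Mock from Input ran with the log2 Input level (Pearson r = 0.72, Spearman rho = 0.54, n = 10 genes that share libraries, as a description). That of RIP from Input did not (r = -0.08, rho = -0.16). SAND and UBC21 had 0 reads in both Mock libraries and PP2AA3 had 1 and 0, so their differences depend on the added 1 FPKM. Within the high set, ACT2 and ACT8 were lowest in Input and had the highest differences (0.53 and 0.08). UBQ10, highest in Input, had -0.73. Whether the relation holds apart from the depth of Mock was not tested.

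The choice of reference changes what a relative enrichment reads. FPA encodes an RNA-binding protein of flowering time. The study set its short and long isoforms against PP2AA3 by RT-qPCR, in NSRa-HA and untagged plants, whereas the whole gene is read here. FPA had 17.3 and 16.7 FPKM in RIP, against 9.13 and 9.99 FPKM in Input, so RIP over Input was 1.78. Its log2 difference of 0.77 ± 0.172 did not pass (limma, Benjamini-Hochberg adjusted p = 0.0481), and 13.6% of features lay above it. Divided by the RIP over Input ratio of each reference gene, that of FPA was 2.59 with PP2AA3, 2.59 with UBQ10, 2.63 with SAND, 2.43 with EF1A and 3 with UBC21. It was higher with ACT7 (3.47) and GAPC1 (4.18), lower with TIP41-like (1.59), and below 1 with ACT8 (0.767) and ACT2 (0.466). The highest of these values was 8.98 times the lowest. For 8 references the value lay above 1 in each RIP library, and for ACT2 (0.469 and 0.462) and ACT8 (0.691 and 0.867) below 1 in each.

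**Figure D4:**
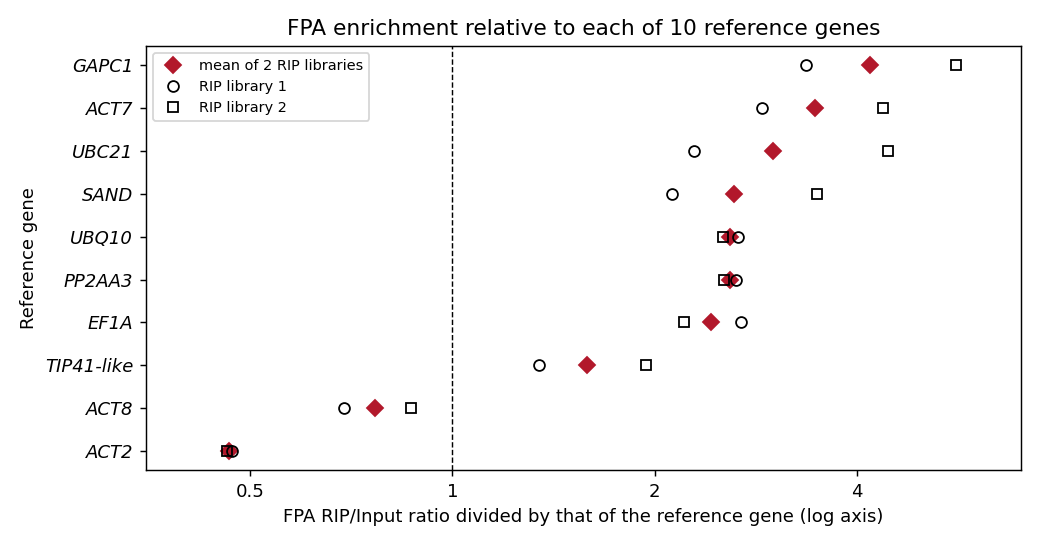
RIP over Input ratio of FPA divided by that of each reference gene (horizontal axis, logarithmic, dashed line at 1), with the mean of the 2 RIP libraries as a red diamond and each RIP library as an open symbol. The value lies at 2.59 with PP2AA3, at 4.18 with GAPC1 and at 0.466 with ACT2.

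The same choice, applied to whole libraries, moved the number of features called in RIP against Input. Scaling the libraries to the geometric mean of the 10 genes gave 372 features higher and 1093 lower in RIP, against 296 and 1155 with FPKM as deposited. Scaling to PP2AA3 alone gave 462 higher and 985 lower, and scaling to ACT2 alone gave 120 higher and 4932 lower. The last 2 scalings were chosen after seeing the data. Dividing by a gene moves all others by about that gene's own difference, 1.93 on the log2 scale for ACT2, so these counts describe the scale and not the genes. With ACT2 as the scale, 5 of the 10 genes passed as lower in RIP (EF1A, GAPC1, SAND, UBC21 and UBQ10), against 4932 of the 19997 features tested. ACT2 itself could not pass on its own scale. With PP2AA3 or all 10 genes as the scale none passed (0 of 10). With PP2AA3 as the scale the log2 difference was 2.47 for ACT2, 1.73 for ACT8 and 0.088 for EF1A.

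Other genes of the same families and other genes used as references were read from the same fits. Of 18 other family members, 17 were tested, and 0 passed in RIP against Input (unadjusted p under 0.05 for 3 lower and 0 higher genes, against 25 and 9.02% of all features), with a median log2 difference of -0.74. The span ran from -2.06 for GAPCP1, a plastid glyceraldehyde-3-phosphate dehydrogenase, to 1.35 for AT1G07940. In RIP against Mock, 2 of the 17 passed as higher, PP2AA1 and TIP41 (AT3G54000), against 34.3% of all features, and the same 2 were the ones lower in Mock than in Input, against 41%. Both had 0 reads in both Mock libraries. PP2AA1, with 148 and 76 reads in RIP, was at least 10.2-fold higher there than the Mock limit of 3 reads, while TIP41, with 13 and 6 reads in RIP, was at 7.38 CPM, under the limit of 8.52 CPM over both Mock libraries, so its difference from Mock was not detectable at this depth. Input was at least 12.5-fold above the limit for PP2AA1 and 1.68-fold for TIP41, and the latter lies below the log2 fold change of 2 used for Mock against Input.

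Of 16 other references, 15 were tested (AT1G58050 was at 0 in every library), and 0 passed in RIP against Input (unadjusted p under 0.05 for 1 higher and 3 lower genes, against 9.02 and 25% of all features). Their median was -0.71, and 14 of 15 were below 0, against 67.1% of all features. TUB4, a beta-tubulin, was the exception with 0.83, and AT3G01150, a polypyrimidine tract-binding protein gene, was lowest with -1.42. In RIP against Mock 6 of the 15 passed as higher, against 34.3% of all features, and 6 passed as lower in Mock against Input, against 41%. All 6 of the genes higher in RIP than in Mock had 0 reads in both Mock libraries, and 3 of them (AT5G15710, AT5G12240 and AT1G62930) were in RIP under the 3-read limit of Mock. The RIP bound of AT5G55840, 1.23-fold, lay below the log2 fold change of 1 used as threshold. For Mock against Input, the Input bounds of AT5G15710 (1.36-fold), AT3G53090 (3.165), AT5G12240 (1.75) and AT1G62930 (1.16) lay below the log2 fold change of 2, while that of AT2G32170 (4.81) lay above it. TUB4 had 266 and 268 FPKM in RIP, against 152 and 147 FPKM in Input, a smaller difference than that of ACT2.

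Properties that did not enter the choice of genes were set beside the recovery in RIP. Exon length was merged over all transcripts of a gene, so it can exceed the length of an mRNA, and the FPKM values rest on the same lengths. It ran between 998 bp for UBC21 and 2417 bp for ACT2, and its relation to the log2 difference of RIP from Input was weak (r = 0.25, rho = 0.37, n = 10 genes, as a description). The largest number of exons, 14 in SAND and 3 in EF1A, gave r = -0.30 and rho = -0.37, and GC content gave r = -0.05 and rho = 0.29. ACT2 and ACT8, recovered most, and ACT7, recovered little, have 4, 5 and 5 exons at most and 40.6, 43.8 and 42.1% GC, values that do not order them by recovery.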

How the data were processed

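RIP, Mock and Input libraries of rRNA-depleted total RNA gave single-end 75 bp reads. The authors used STAR for alignment, summarizeOverlaps (strand-specific, Union) for counting and RSEM for TPM, and the submitters' processing notes name TAIR10; versions are not given in the sources used here. The table was deposited as counts but holds FPKM scaled by the authors, as 99.2 to 99.3% of annotated features above 0 gave whole reads (tolerance 0.02) when multiplied by exon length and divided by the value of 1 read. Totals and reads per gene were recovered in this way. Every one of the 6 columns matched a label, and 0 columns were left out.

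Features reaching 1 FPKM in 2 or more libraries were fitted with limma 3.58.1 (R 4.3.3) as log2(FPKM + 1) over all 6 libraries, with a mean-variance trend, and p-values were adjusted by Benjamini-Hochberg over 19997 features. Adding 1 FPKM understates changes of low genes. Fold thresholds for RIP over Input and RIP over Mock follow the study's methods, which state them for enrichment; they were applied here in both directions, and that of RIP over Input also to Mock against Input. The study fitted counts of pairs of groups; limma took the place of a count model because the unit is FPKM. Counting intervals are exact at 95% (scipy 1.17.1). Coordinates and exon lengths come from TAIR10.1 in RefSeq, counted from 1, and sequences from the same genome; protein sequences were not used here. Alternatives were another pseudocount (0.1), no filter or 5 FPKM, only the 2 groups compared, the replicate block, median-of-ratios, quantile and reference gene scaling, voom on recovered reads, and each library left out, where a lone library is taken to vary like the others. Every member was named, with FPA; of the other lists, genes that passed, that share reads with a member, or the lowest and highest. The members and lists were chosen with earlier results of these data known.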

Additional observations from a re-analysis of the deposited data

How the results depend on the processing

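The number of features passing in RIP against Input, 1451, was 2376 with a pseudocount of 0.1 FPKM, 571 with quantile normalization, 44 with voom on recovered reads, 5052 with scaling to ACT2, and 949 to 3083 with single libraries left out; the 10 genes passing were 0, or 5 with scaling to ACT2. In RIP against Mock, 6889 became 0 with only those 2 groups, 2013 with quantile normalization, 1700 with voom and 2578 to 10008 with libraries left out, and the 2 reference genes passing became 0 under each of the first 3 and 0 to 4 with libraries left out. In Mock against Input, 8348 became 735 with quantile normalization, 2777 with voom and 3552 to 10435 with libraries left out, and the 3 reference genes passing became 0 with quantile normalization and 0 to 4 with libraries left out. The share of passing features that were higher was 20.4% in RIP against Input, but 47.8% with quantile normalization, 86.4% with voom, 31.9% with scaling to PP2AA3, 2.38% with scaling to ACT2 and 5.87 and 6.22% without Input library 1 or 2. It was 99.5% in RIP against Mock, but 11.3% with quantile normalization and 1.53% with voom, and 1.71% in Mock against Input, but 21.9% with quantile normalization. The median log2 difference over all features was -0.52, 2.13 and -2.70 in these comparisons and -0.0017, -0.17 and 0.12 with quantile normalization. The cause of these shifts was not tested.

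Some signs reversed. In RIP against Input these were TIP41-like (-0.15 to 0.41 with a library left out, -1.62 with scaling to ACT2), EF1A (0.088 with scaling to PP2AA3) and ACT8 (-0.73 with scaling to ACT2); the values of the 10 genes under the 3 reference gene scalings were added after seeing the data, without a gene's value under its own scale. In RIP against Mock these were PP2AA3 (-0.014 with quantile normalization), TIP41-like (-0.69 to 4.46 with a Mock library left out), EF1A (-0.51 to 0.28) and UBQ10 (-0.025 with median-of-ratios scaling, -0.27 to 0.65 with a Mock library left out). In Mock against Input these were TIP41-like (0.62 with quantile normalization, -4.32 to 0.83 with a Mock library left out), EF1A (-0.73 to 0.055), ACT2 (-0.18 to 1.24) and ACT8 (-0.18 to 0.34). Of 168 values in RIP against Input and 140 in each of the others, 159, 120 and 118 kept their direction and side of the threshold. With the replicate number as a block, 1068, 5275 and 7070 features passed in RIP against Input, RIP against Mock and Mock against Input, and 0, 2 and 2 of the 10 genes; PP2AA3 was lost in Mock against Input (limma adjusted p = 0.0152), and the block changed no other call of the 10. Deviations of same-numbered libraries correlated at 0.00846, 0.0122 and -0.00166 in these comparisons. With 2 libraries a group, this does not settle whether the numbers pair the libraries. The depth of Mock, where 3 reads are 15.2 and 19.5 CPM, limits the values of PP2AA3, SAND, TIP41-like and UBC21.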
